A study of Mus musculus with 6 samples.

Results

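Autophagy in a muscle fibre is started by a small set of proteins, and the transcripts of 10 of them were followed here in the gastrocnemius muscle of mice with C26 tumors. The genes were Ulk1, Ulk2, Atg13 and Rb1cc1 of the kinase complex that starts the process, Becn1 and Atg14 of the lipid kinase complex, the lipid-binding Wipi1, the Rab7 regulator Tbc1d15, and the transcription factors Tfeb and Tfe3. They were chosen by name, with earlier results of these data known, so counts set beside the shares of all genes are only descriptive. All 10 were listed among the 13363 genes of the deposited table. RNA sequencing had given 3 libraries of this muscle from mice with C26 tumors and 3 from mice without, all of the Balb/c strain and, per the study's methods, male. The mice were 6 weeks old when purchased and were kept for 1 week before the experiment. The former, called C26 mice, carried a subcutaneous graft of colon-26 cells, a murine adenocarcinoma line whose tumors cause wasting, and the latter served as controls. The expression values were FPKM, which are scaled for transcript length and sequencing depth, so they can be compared between genes. No source used here states that each library came from its own mouse, and p-values then measure only the spread between these libraries, which may be partly technical.

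When nutrients are plentiful, the kinase mTORC1 holds the ULK complex inactive, and when energy falls the kinase AMPK activates it. The active ULK complex recruits the class III lipid kinase complex, whose product, phosphatidylinositol 3-phosphate, is bound by WIPI proteins where the autophagosome membrane grows. TFEB and TFE3 enter the nucleus when mTORC1 releases them and activate genes of autophagy and of lysosomes through E-box sequences. In skeletal muscle this pathway clears proteins and mitochondria, and it is known to be active in fasting and in wasting disease.

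In the muscle of C26 mice, 6 of the 10 genes rose and none fell; 5 of the calls held under the 8 alternatives and without each muscle in turn, while that of Atg14 was lost on FPKM as deposited, with the replicate number as a block, and without C26 replicate 1 or any 1 of the 3 controls. The genes that rose were Tbc1d15, Ulk1, Atg13, Rb1cc1, Wipi1 and Atg14, with fold changes between 8.21 for Tbc1d15 and 1.63 for Atg14. Ulk2, Becn1, Tfeb and Tfe3 did not pass the test. A gene was called when its adjusted p from limma was under 0.05, with Benjamini-Hochberg adjustment over all 13363 genes, and 19.4% of all genes were called higher and 14.5% lower by this rule. These shares depend on the processing, with 12.6% higher and 18.7% lower on FPKM as deposited, and 8.46% to 24.8% higher and 5.01% to 16.2% lower when 1 muscle was left out. At an unadjusted p under 0.05 from limma, 6 genes were higher and 0 lower, against 25.1% and 22.0% of all genes. The fold change also exceeded 4 for 2 genes, Tbc1d15 and Ulk1, against 1.77% of all genes. The median log2 change was 0.99 over the 10 genes and -0.05 over all genes. The log2 change is the mean log2 value of the C26 muscles minus that of the controls. It was fitted on FPKM rescaled to TPM, brought to a common scale with TMM factors and put on the log2 scale with a pseudocount of 1, which understates the change of low genes. All C26 values lay above all control values on that scale for 7 genes, those that rose and Tfeb, against 27.0% of all genes.

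The sequences around the annotated start sites are shown for 5 of the 6 genes that rose, since TFEB and TFE3 bind the E-box and its letters occurred in 2 of them. They are from RefSeq for GRCm38.p6, 5′ to 3′ on the minus strand, and capitals mark the E-box CACGTG. Each begins at base -80 relative to the start, except that of Tbc1d15, of which only the bases around the E-box are shown. Both Atg14 (chr14:47568415-47568514), where the E-box begins at base -1 and spans the start, and Tbc1d15 (chr10:115251444-115251473, from base 21), where it begins at base 38 within the first transcribed bases, held it.
Atg14: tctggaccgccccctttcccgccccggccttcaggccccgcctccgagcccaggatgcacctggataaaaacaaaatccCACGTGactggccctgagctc
Tbc1d15: gttgtgagtccgagagcCACGTGaggttgt

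The starts of 3 other genes are shown for comparison, as they rose without these letters in their windows. The windows of Ulk2, Tfeb and Tfe3, which did not pass the test, lacked the letters as well and are not shown. They are Ulk1 (chr5:110810062-110810161), Atg13 (chr2:91710573-91710672) and Wipi1 (chr11:109611370-109611469).
Ulk1: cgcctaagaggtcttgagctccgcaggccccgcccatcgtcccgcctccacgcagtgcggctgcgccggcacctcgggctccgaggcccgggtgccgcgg
Atg13: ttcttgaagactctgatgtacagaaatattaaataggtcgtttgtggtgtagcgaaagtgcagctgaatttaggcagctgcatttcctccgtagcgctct
Wipi1: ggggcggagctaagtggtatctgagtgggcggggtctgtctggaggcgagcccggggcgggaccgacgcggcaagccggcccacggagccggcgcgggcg

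Windows from 250 bases before to 50 bases after a start were given for 8 of the 10 genes, as 11 windows. Rb1cc1 and Becn1 had no window. The E-box CACGTG, which reads alike on both strands, was in 2 of the 11 windows and in 7.15% of 32851 windows of all genes. The core of the CLEAR element, which is the E-box preceded by T and followed by A, was in 0 of the 11 windows and in 0.974% of all. The FoxO site GTAAACA, searched on both strands, was in 0 of the 11 and in 3.65% of all. The glucocorticoid response element, searched on both strands, was in 0 of the 11 and in 3 windows of all genes. The GC content of the windows ranged from 49.0% for Atg13 to 74.7% for Ulk2. A match of letters describes the sequence and shows no binding, and a window without a match says nothing about the factor.

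Ulk1, the kinase that starts autophagy, rose, while its paralog Ulk2 did not pass the test. Ulk1 had 66.6, 38.4 and 73.3 FPKM in the C26 muscles and 13.3, 15.7 and 11.3 FPKM in the control muscles. The lowest C26 value, of replicate 2, was still above the highest control value. The log2 change of Ulk1 was 2.26 (SE 0.32, adjusted p = 0.00569 from limma, 95% interval 1.50 to 3.03), a fold change of 4.80. With quantile normalization it was 1.95, below a fold of 4.

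Ulk2 had 12.2, 14.4 and 12.3 FPKM in C26 muscles and 13.0, 15.1 and 10.4 FPKM in control muscles. The groups overlapped, and the log2 change of 0.23 had a 95% interval from -0.26 to 0.73 (adjusted p = 0.403 from limma). In control muscle both kinases thus had like levels, with mean FPKM of 13.5 ± 2.19 for Ulk1 and 12.8 ± 2.33 for Ulk2 (SD, n = 3). In C26 muscle the means were 59.4 ± 18.5 and 13.0 ± 1.22 FPKM. The ratio of Ulk1 to Ulk2 FPKM within a muscle was 5.47, 2.67 and 5.94 in C26 mice and 1.03, 1.04 and 1.09 in controls. The difference in mean log2 ratio was 2.07, without overlap (two-sided exact permutation test, p = 0.1, adjusted p = 0.2 over 8 ratios). Designs of 3 against 3 samples cannot give a p below 0.1 in this test, so no ratio could pass 0.05. As the kinases are paralogs, the estimate could divide reads that match both.

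Atg13 and Rb1cc1, partners of the kinase, rose as well. Atg13, the subunit that mTORC1 and the ULK kinases phosphorylate, had 33.1, 31.1 and 25.8 FPKM in C26 muscles and 10.7, 10.6 and 9.13 FPKM in control muscles. Its groups were far apart, with little spread within either, and the log2 change was 1.71 (SE 0.16, adjusted p = 0.00222 from limma, 95% interval 1.32 to 2.10), a fold change of 3.28. Rb1cc1, which encodes the scaffold protein FIP200, had 29.6, 22.9 and 21.3 FPKM in C26 muscles and 8.17, 9.47 and 8.07 FPKM in control muscles. It was higher in every C26 muscle than in any control, with a log2 change of 1.65 (SE 0.19, adjusted p = 0.00352 from limma, 95% interval 1.203 to 2.103), a fold change of 3.14. An antisense gene, 4732440D04Rik, is annotated across from Rb1cc1, and since no source used here states a stranded protocol, reads of the pair cannot be told apart.

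The remaining subunit of the complex, Atg101, did not pass the test and was named after its values were seen, as the 1 gene of its list. It had 25.4 ± 0.575 FPKM in C26 and 37.6 ± 4.23 in control muscle (SD, n = 3), with a log2 change of -0.34 (adjusted p = 0.0782 from limma). The ratio of Ulk1 to Atg13 was 2.01, 1.24 and 2.84 in C26 muscles and 1.25, 1.48 and 1.24 in control muscles, and these groups overlapped (log2 difference 0.54, two-sided exact permutation test, p = 0.4, adjusted p = 0.4). The difference was 0.26 without C26 replicate 3 and 0.86 without C26 replicate 2. The ratio of Ulk1 to Rb1cc1 was 2.25, 1.68 and 3.45 in C26 muscles and 1.63, 1.66 and 1.40 in control muscles. Here the lowest C26 value lay just above the highest control value (log2 difference 0.59, two-sided exact permutation test, p = 0.1, adjusted p = 0.2), and the difference was 0.32 without C26 replicate 3 and 0.84 without C26 replicate 2.

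**Figure D1:**
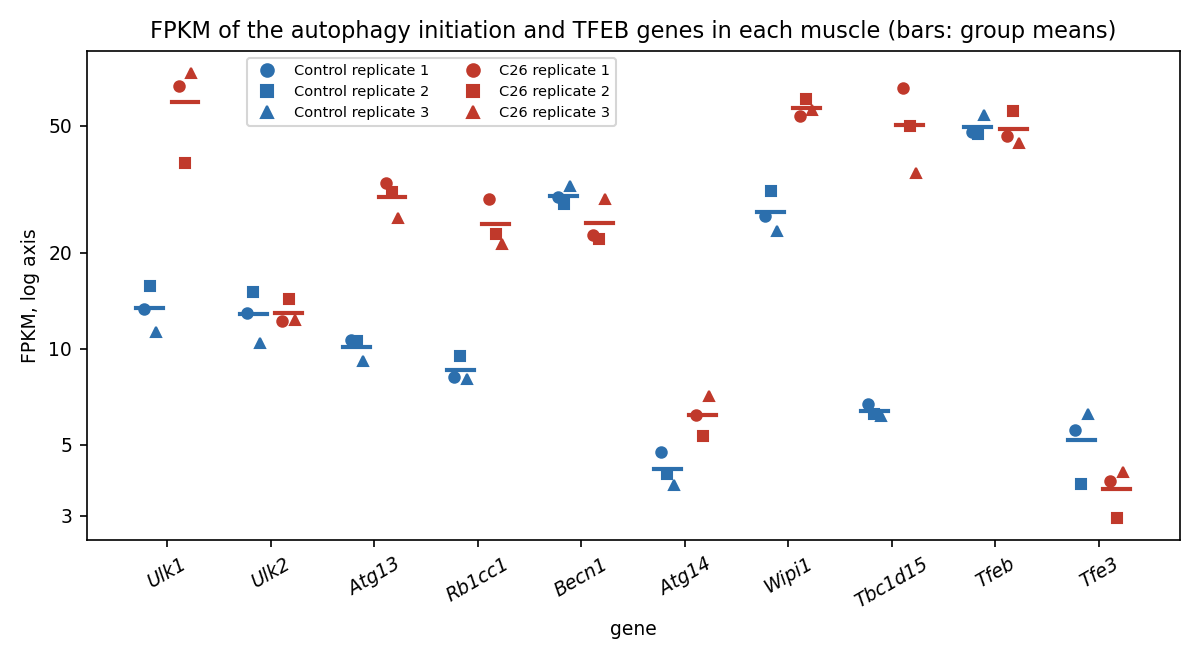
Expression in FPKM, on a log axis, of the 10 genes in each of the 3 control (blue) and 3 C26 (red) muscles, with a bar at the mean of each group and the marker shape giving the replicate number. The groups lie apart for Ulk1, Atg13, Rb1cc1, Wipi1 and Tbc1d15, lie close but apart for Atg14, and overlap for Ulk2, Becn1, Tfeb and Tfe3.

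In the lipid kinase complex, Atg14 rose by a small amount and Becn1 did not pass the test. Beclin 1, encoded by Becn1, holds the complex together. Becn1 had 22.8, 22.1 and 29.4 FPKM in C26 muscles and 29.9, 28.5 and 32.4 FPKM in control muscles. Its highest C26 value, of replicate 3, fell among the controls, and the log2 change of -0.08 had a 95% interval from -0.51 to 0.35 (adjusted p = 0.746 from limma). It was -0.29 on FPKM as deposited (adjusted p = 0.172 from limma) and -0.47 with quantile normalization (adjusted p = 0.108 from limma), and 0.028 without C26 replicate 2. Becn1 shares exonic bases with Cntd1 on the opposite strand, so reads there could belong to either.

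Atg14 directs the complex to sites where autophagosomes form. It had 6.21, 5.33 and 7.14 FPKM in C26 muscles and 4.75, 4.06 and 3.75 FPKM in control muscles. Every C26 value exceeded the controls, by a margin that was small between C26 replicate 2 and control replicate 1. The log2 change was 0.70 (SE 0.19, adjusted p = 0.0301 from limma, 95% interval 0.26 to 1.15), a fold change of 1.63. This was the weakest of the 6 calls. It was lost on FPKM as deposited (log2 change 0.48, adjusted p = 0.05004 from limma) and with the replicate block (adjusted p = 0.0838 from limma). The adjusted p from limma was 0.0946 without C26 replicate 1, 0.0718 without control replicate 1, 0.0615 without control replicate 2 and 0.0616 without control replicate 3, and the log2 changes were then between 0.60 and 0.77. The gene Gm49004 is annotated antisense to Atg14, and reads of the 2 cannot be told apart without strand.

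The ratio of Atg14 to Becn1 within a muscle was 0.272, 0.242 and 0.243 in C26 mice and 0.159, 0.143 and 0.116 in controls. The groups did not overlap and the log2 difference was 0.87 (two-sided exact permutation test, p = 0.1, adjusted p = 0.2). Uvrag, which takes the place of Atg14 in the complex that serves endosomes, had 13.0, 15.4 and 7.46 FPKM in C26 muscles and 3.88, 3.43 and 7.71 FPKM in control muscles. The FPKM of C26 replicate 3 and control replicate 3 were nearly equal, and the log2 change was 1.38 (SE 0.32, adjusted p = 0.0200 from limma). Without C26 replicate 1, C26 replicate 2, control replicate 1 or control replicate 2, the log2 change of Uvrag was 1.30, 1.21, 1.24 and 1.24, and the adjusted p from limma was 0.0762, 0.0666, 0.0756 and 0.06004. It was 0.0549 on FPKM as deposited and 0.0673 with the replicate block. The ratio of Atg14 to Uvrag was 0.477, 0.346 and 0.957 in C26 muscles and 1.22, 1.18 and 0.486 in control muscles, with overlap (log2 difference -0.72, two-sided exact permutation test, p = 0.2, adjusted p = 0.32). This difference ranged from -0.40 without C26 replicate 2 to -1.16 without control replicate 3.

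The catalytic subunit of the complex, Pik3c3, rose from 6.57 ± 0.228 to 11.97 ± 2.62 FPKM (SD, n = 3), a log2 change of 0.99 (adjusted p = 0.00982 from limma). Of 7 further genes of this complex and its regulators, 2 rose, 0 fell and 5 did not pass, with a median log2 change of 0.53. Those that rose were Pik3c3 and, with the losses given above, Uvrag. These counts were not far from the shares of all genes called, 19.4% higher and 14.5% lower.

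Wipi1 binds the lipid that the complex makes. It had 53.6, 60.6 and 56.1 FPKM in C26 muscles and 26.03, 31.3 and 23.4 FPKM in control muscles. The C26 muscles were close to each other and all above the controls, and the log2 change was 1.28 (SE 0.19, adjusted p = 0.00645 from limma, 95% interval 0.82 to 1.74), a fold change of 2.43. Its relative Wipi2, which binds the conjugation factor ATG16L1, also rose, from 10.9 ± 0.322 to 20.9 ± 2.66 FPKM (SD, n = 3; log2 change 1.10, adjusted p = 0.00519 from limma). The ratio of Wipi1 to Wipi2 was 2.28, 2.88 and 3.08 in C26 muscles and 2.40, 2.79 and 2.21 in control muscles. These values overlapped, with a log2 difference of 0.15 (two-sided exact permutation test, p = 0.4, adjusted p = 0.4) that ranged from 0.064 without C26 replicate 3 to 0.28 without C26 replicate 1.

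The other genes of phagophore growth, the stage in which the membrane expands, included more that rose. Of 9 such genes, 4 rose, 0 fell and 5 did not pass, where 19.4% of all genes were called higher and 14.5% lower. The median log2 change was 0.61. Besides Wipi2, those that rose were Zfyve1, which encodes the phagophore-site protein DFCP1 (log2 change 1.96, adjusted p = 0.00397 from limma), Wdr45, a WIPI relative (1.03, adjusted p = 0.00523), and Atg2b, a lipid transfer protein (0.87, adjusted p = 0.00842).

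Tbc1d15 showed the largest change of the 10 genes. Its protein switches off the small GTPase RAB7 and is held at mitochondria by FIS1. Tbc1d15 had 65.8, 50.1 and 35.7 FPKM in C26 muscles and 6.72, 6.23 and 6.15 FPKM in control muscles. The 3 controls were nearly equal, the C26 muscles were spread, and the lowest C26 value was far above the highest control. The log2 change was 3.04 (SE 0.22, adjusted p = 0.00119 from limma, 95% interval 2.52 to 3.56), a fold change of 8.21, and the lower bound lay above a fold of 4.

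Rab7, the target of this protein, had 144 ± 33.5 FPKM in C26 and 132 ± 7.65 FPKM in control muscle (SD, n = 3), and did not pass the test (log2 change 0.32, adjusted p = 0.3002 from limma, and -0.12 with quantile normalization). The ratio of Tbc1d15 to Rab7 was 0.573, 0.364 and 0.198 in C26 muscles and 0.0486, 0.0463 and 0.0497 in control muscles. The groups were apart, with a log2 difference of 2.84 (two-sided exact permutation test, p = 0.1, adjusted p = 0.2). Fis1 had 103 ± 11.0 FPKM in C26 and 164 ± 26.2 FPKM in control muscle, with a log2 change of -0.45 (adjusted p = 0.0730 from limma). Fis1 was named for its link to TBC1D15 after its values were seen.

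**Figure D2:**
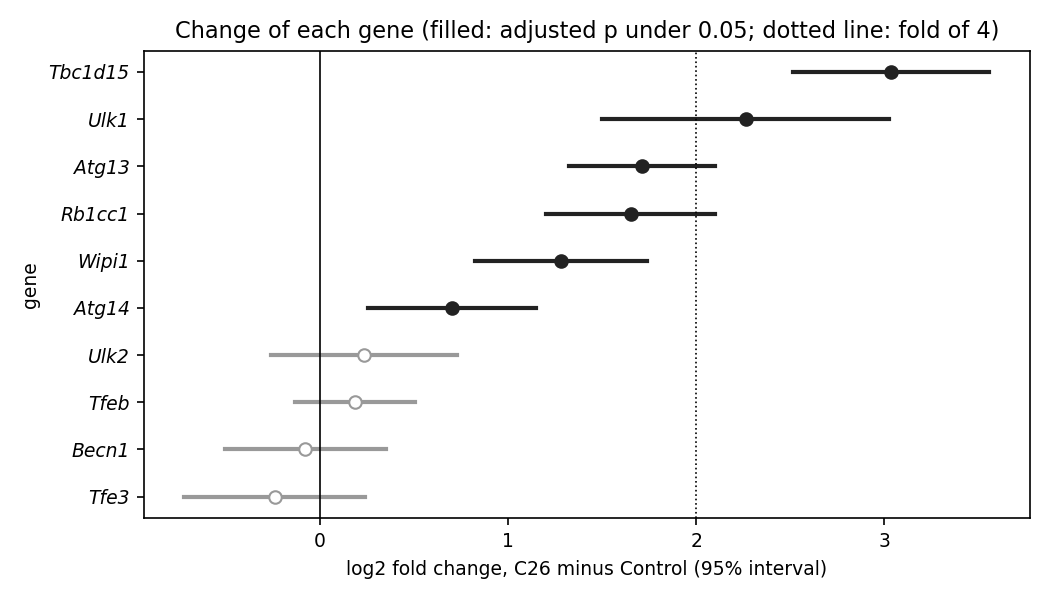
Log2 change (C26 minus control, x axis) of each of the 10 genes with its 95% interval from limma, filled where the adjusted p was under 0.05; the dotted line is a fold change of 4. Tbc1d15 lies with its whole interval beyond the line, Ulk1 crosses it, and the intervals of Ulk2, Tfeb, Becn1 and Tfe3 include 0.

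The transcription factors themselves did not pass the test. Tfeb had 46.5, 55.7 and 44.4 FPKM in C26 muscles and 47.9, 47.2 and 54.0 FPKM in control muscles. The FPKM overlapped, while after rescaling the 3 C26 values lay above the controls. The log2 change was 0.18 (SE 0.13, adjusted p = 0.312 from limma, 95% interval -0.14 to 0.50), and its sign turned with the scaling, to -0.03 on FPKM as deposited and -0.24 with quantile normalization. The interval did not reach 0.70, the change of Atg14, which was the smallest of the 6 calls, but the difference between these genes was not tested. Levels of mRNA do not show where the TFEB protein was in the cell.

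Tfe3 was the lowest of the 10 genes in C26 muscle. It had 3.86, 2.96 and 4.12 FPKM in C26 muscles and 5.58, 3.76 and 6.25 FPKM in control muscles. The C26 and control values overlapped through control replicate 2, and the log2 change was -0.24 (SE 0.20, adjusted p = 0.377 from limma, 95% interval -0.72 to 0.24). Tfeb thus stood well above Tfe3 in every muscle, with a ratio of 12.03, 18.8 and 10.8 in C26 mice and 8.59, 12.6 and 8.64 in controls. This ratio overlapped between the groups (log2 difference 0.46, two-sided exact permutation test, p = 0.3, adjusted p = 0.4), and the difference was 0.22 without C26 replicate 2.

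Mitf, another member of the same transcription factor family, rose from 2.35 ± 0.101 to 4.16 ± 0.317 FPKM (SD, n = 3), a log2 change of 0.87 (adjusted p = 0.00702 from limma). Of 8 genes of the family and of TFEB control, 7 were listed (Tfec was not), and 1 rose, 1 fell and 5 did not pass, with a median of -0.16, counts close to the shares of all genes called (19.4% higher and 14.5% lower). The gene that fell was Xpo1, the exportin that carries TFEB out of the nucleus, with a log2 change of -0.63 (adjusted p = 0.0327 from limma). The call of Xpo1 was lost without C26 replicate 1 (adjusted p = 0.109 from limma), C26 replicate 2 (0.103), control replicate 1 (0.0798), control replicate 2 (0.0512) and control replicate 3 (0.0566), with log2 changes from -0.70 to -0.50.

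**Figure D3:**
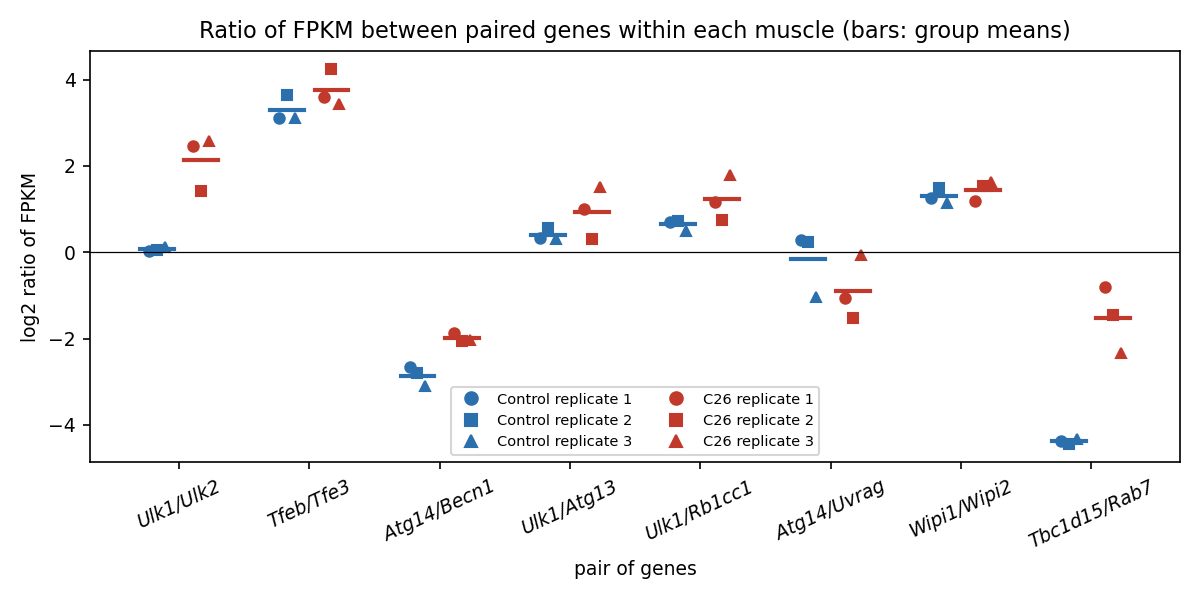
Log2 ratio of FPKM between the genes of each of 8 pairs within each control (blue) and C26 (red) muscle, with a bar at the mean of each group and the marker shape giving the replicate number. The groups lie apart for Ulk1/Ulk2, Atg14/Becn1 and Tbc1d15/Rab7 and only just apart for Ulk1/Rb1cc1, and they overlap for the other 4 pairs.

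The order of the levels changed between the groups. In control muscle Tfeb had the highest mean of the 10 genes (49.7 ± 3.74 FPKM), followed by Becn1 (30.2 ± 1.98), Wipi1 (26.9 ± 4.04), Ulk1, Ulk2, Atg13 (10.1 ± 0.872), Rb1cc1 (8.57 ± 0.781), Tbc1d15 (6.37 ± 0.309), Tfe3 (5.20 ± 1.29) and Atg14 (4.19 ± 0.512), with the SD of 3 muscles. Becn1 and Wipi1 overlapped in their control values, as did Ulk1 and Ulk2, Ulk2 and Atg13, Atg13 and Rb1cc1, Tbc1d15 and Tfe3, and Tfe3 and Atg14. In C26 muscle the order was Ulk1, Wipi1 (56.8 ± 3.52 FPKM), Tbc1d15 (50.5 ± 15.0), Tfeb (48.8 ± 6.03), Atg13 (29.97 ± 3.77), Becn1 (24.8 ± 4.05), Rb1cc1 (24.6 ± 4.42), Ulk2, Atg14 (6.23 ± 0.905) and Tfe3 (3.65 ± 0.609). The first 4 of these overlapped each with the next, as did Atg13, Becn1 and Rb1cc1, so their order within these stretches was not resolved. Ulk1 and Tbc1d15 lay below all Tfeb values in control muscle and overlapped with them in C26 muscle.

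Each pathway step was described further by lists of 88 other genes, of which 86 were in the table; 33 rose, 6 fell and 47 did not pass, with a median log2 change of 0.39. The shares of all genes called, 19.4% higher and 14.5% lower, are the background for these counts. The lists, too, were chosen with earlier results of these data known. On FPKM as deposited 26 were higher and 11 lower, where 12.6% of all genes were called higher and 18.7% lower, and with quantile normalization 26 were higher and 11 lower, where 16.8% and 11.8% were. Without control replicate 1 the number that rose was 19, where 8.62% of all genes were called higher, and without C26 replicate 1 it was 21, where 8.46% were. The number that fell was 1 without C26 replicate 1, C26 replicate 2, control replicate 1 or control replicate 2, where 5.01% to 10.5% of all genes were called lower, and 13 without C26 replicate 3, where 16.2% were.

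The LC3 family and the cargo receptors held the most genes that rose. Of 13 genes 12 were listed (Gabarap was not), and 11 rose, 0 fell and 1 did not pass, with a median of 1.41. Over all genes 19.4% were called higher and 14.5% lower. Gabarapl1, an LC3 relative on the autophagosome membrane, had 673, 662 and 233 FPKM in C26 muscles and 32.6, 31.4 and 21.8 FPKM in control muscles, a log2 change of 4.25 (adjusted p = 0.00256 from limma). Bnip3, a receptor on mitochondria, followed with 2.68 (adjusted p = 0.00352), then Map1lc3b, which encodes LC3B, with 2.05 (adjusted p = 0.00197) and Sqstm1, the receptor p62, with 1.86 (adjusted p = 0.00258), all from limma. Of 10 genes of the conjugation machinery that attaches LC3 to lipid, 1 rose, 0 fell and 9 did not pass, with a median of 0.17. These counts did not exceed the shares of all genes called. The 1 gene was Atg4d, an LC3-processing protease (log2 change 0.55, adjusted p = 0.0244 from limma). Its adjusted p was 0.0968 without C26 replicate 1, 0.0793 without C26 replicate 2 and 0.0892 without control replicate 1, and it was 0.0505 at a pseudocount of 0.1, 0.102 on FPKM as deposited, 0.285 with quantile normalization and 0.0676 with the replicate block. Whether the lists differed from each other was not tested.

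Among 16 genes of RAB7 control and fusion with lysosomes, 7 rose, 1 fell and 8 did not pass, with a median of 0.51. Over all genes 19.4% were called higher and 14.5% lower. Tbc1d17, another RAB7-directed TBC protein bound by FIS1, rose with a log2 change of 1.61 (adjusted p = 0.00494 from limma), Epg5, a tether, with 1.29 (adjusted p = 0.00843) and Snap29, a fusion SNARE, with 1.27 (adjusted p = 0.00773). Vamp8, the lysosomal SNARE, fell with a log2 change of -1.20 (adjusted p = 0.0274 from limma), from 44.4, 41.4 and 61.3 FPKM in controls to 12.3, 17.1 and 26.5 FPKM in C26 muscles. That call held without C26 replicate 3 and was lost without any 1 of the other 5 muscles, at adjusted p between 0.0620 and 0.0851 and log2 changes between -1.28 and -0.94.

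Of 8 genes of the energy sensor AMPK, which were its subunits and the upstream kinase Stk11, 2 rose, 1 fell and 5 did not pass, with a median of 0.21. These counts were close to the shares of all genes called, 19.4% higher and 14.5% lower. Prkag3, the gamma subunit typical of fast fibres, had 8.72, 10.6 and 7.96 FPKM in C26 muscles and 86.6, 83.6 and 86.8 FPKM in control muscles. The groups were tight and far apart, and the log2 change was -2.96 (SE 0.14, adjusted p = 0.000822 from limma). Prkaa2, the catalytic subunit abundant in muscle, rose with 1.16 (adjusted p = 0.0258 from limma) and Prkab1 with 0.73 (adjusted p = 0.0397 from limma). For Prkaa2 the adjusted p was 0.0879 without C26 replicate 1, 0.0619 without C26 replicate 2, 0.0790 without control replicate 1 and 0.0681 with quantile normalization. For Prkab1 it was 0.132, 0.120 and 0.127 without these same muscles and 0.0955 without control replicate 2. The Prkab1 call was also lost under 5 of the 8 alternatives, with an adjusted p from limma of 0.0513 at a pseudocount of 0.1, 0.0697 for TPM without TMM factors, 0.147 on FPKM as deposited, 0.0873 with quantile normalization and 0.0969 with the replicate block.

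Of 16 genes of mTORC1 and nutrient sensing at the lysosome, 5 rose, 3 fell and 8 did not pass, with a median of 0.26. These counts were not far from the shares of all genes called, 19.4% higher and 14.5% lower. Flcn, folliculin, which acts on the Rag GTPases that control TFEB, had 62.9, 46.9 and 54.4 FPKM in C26 muscles and 23.2, 23.5 and 19.5 FPKM in control muscles (log2 change 1.496, adjusted p = 0.00477 from limma). Rheb, the GTPase that activates mTORC1, rose with 1.17 (adjusted p = 0.00882 from limma) and Rragc, a Rag GTPase, with 0.90 (adjusted p = 0.0249 from limma). Lamtor4, a subunit of the Ragulator that anchors mTORC1 to the lysosome, fell with -1.11 (adjusted p = 0.0222 from limma). The adjusted p of Rragc was 0.0884 without C26 replicate 1, 0.0779 without C26 replicate 2, 0.0628 without control replicate 1 and 0.0504 without control replicate 3, and it was 0.0626 on FPKM as deposited and 0.0762 with quantile normalization. That of Lamtor4 was 0.0804 without C26 replicate 1, 0.0527 without C26 replicate 2, 0.0766 without control replicate 1 and 0.0542 without control replicate 2.

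**Figure D4:**
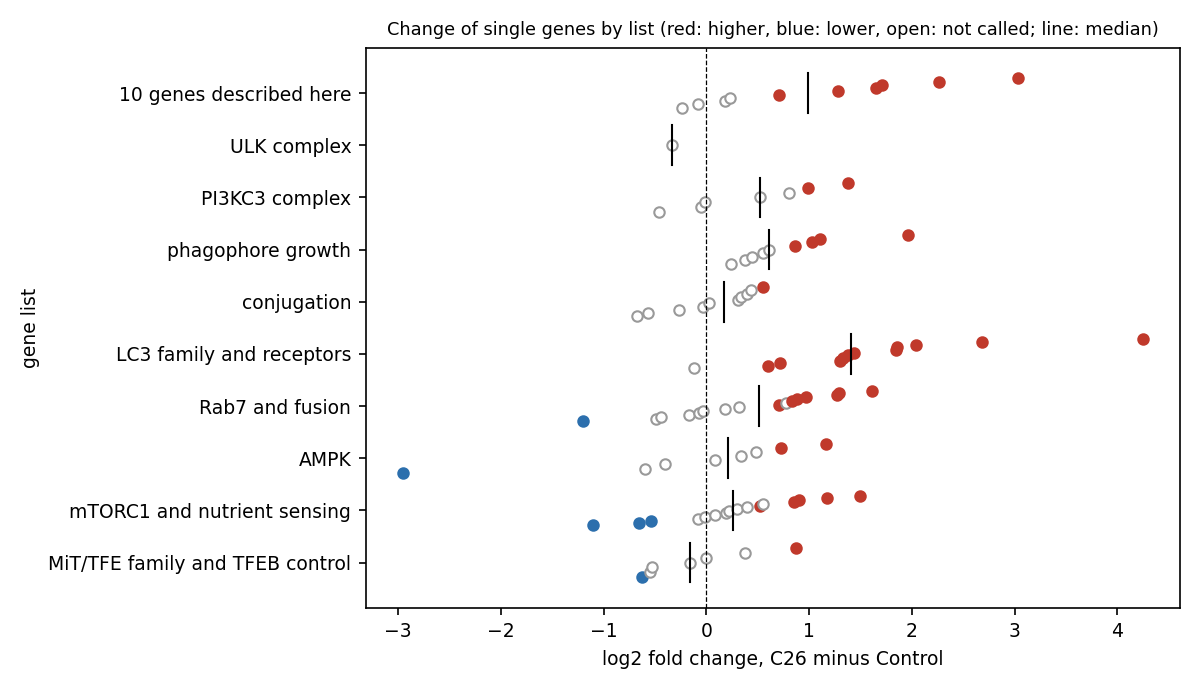
Log2 change (C26 minus control, x axis) of each gene of the 10 described here and of 9 lists of other pathway genes, 1 point a gene, red where called higher, blue where called lower and open where not called, with a line at the median of each list. The LC3 family and receptors lie mostly to the right, and the lowest point, in the AMPK list, is Prkag3.

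The genes whose log2 values followed Ulk1 most closely over the 6 muscles were Ythdf1, Zfyve1 and Ube4a, with Pearson's r of 0.999, 0.998 and 0.998. Such values were common, as 1138 genes had an r above 0.9 with Ulk1. For Tfeb, which differed less between the groups, the closest were Sap130 (r = 0.997), Micos13 (0.990) and Snx14 (0.990), and 131 genes had an r above 0.9. The points of each correlation share their libraries and scaling.

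**Figure D5:**
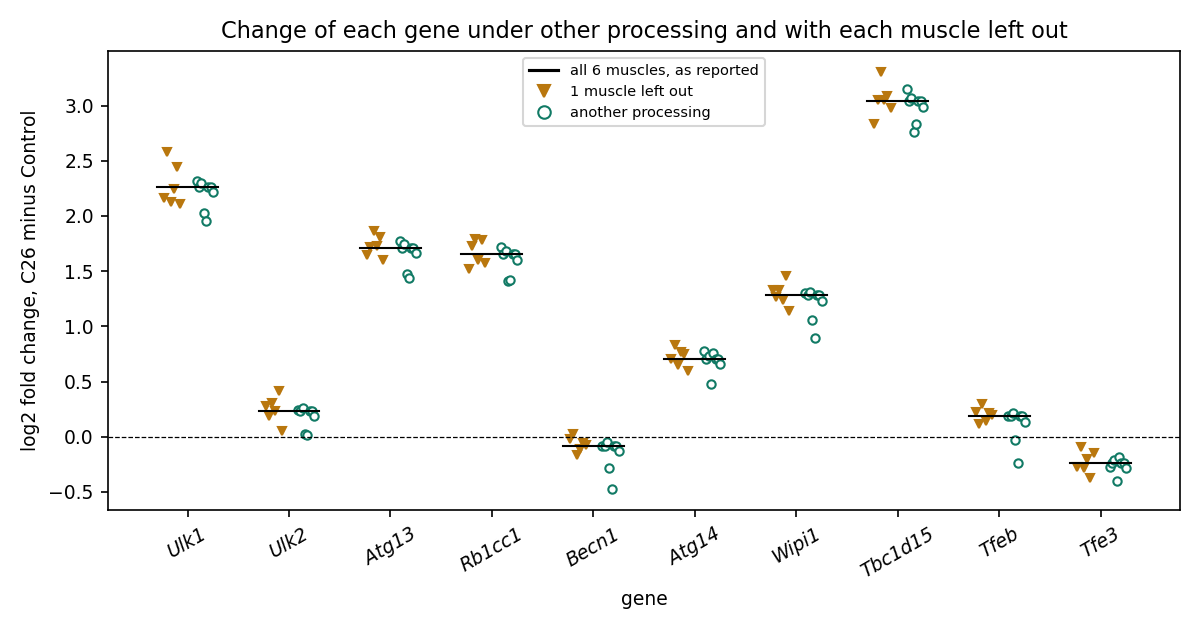
Log2 change (C26 minus control, y axis) of each of the 10 genes as reported (line), with 1 muscle left out at a time (6 triangles) and under 8 other ways of processing (open circles). Ulk1, Atg13, Rb1cc1, Atg14, Wipi1 and Tbc1d15 stay above 0 throughout, while Becn1 and Tfeb lie on both sides of 0.

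The labels give gastrocnemius muscle as the source, although their extraction protocol also names THP-1 cells, a human monocytic line. The libraries carried the markers of skeletal muscle, though some of these were spread widely between C26 muscles. Mb had 275, 74.0 and 4906 FPKM in C26 and 578, 1569 and 887 FPKM in control muscle. Myh1 had 299, 254 and 2555 FPKM in C26 and 92.8, 331 and 118 FPKM in control muscle. No listed gene was at 0 in any library, and whether genes had been removed before deposit is not known here. The FPKM of a library summed to between 531061 and 585169 in C26 and between 626992 and 688300 in control muscle. All 8 skeletal muscle markers were listed and 0 of them were called. Their summed level was 52800 to 75350 FPKM in C26 and 89930 to 92480 FPKM in control muscle. These sums and those below are of FPKM as deposited, whose totals were lower in C26, while calls were made after rescaling. A gap between sums need not remain on the scale of the calls. In bulk muscle, fewer cells of a type and less RNA per cell cannot be told apart. Of 8 adipocyte markers 6 were lower in C26 muscle (summed 299 to 478 FPKM against 743 to 5500), of 6 fibroblast markers 4 were lower (159 to 199 against 356 to 424), and of 5 endothelial markers 1 was lower (34.1 to 39.9 against 45.0 to 61.9). All 3 blood markers were higher (367 to 685 FPKM against 193 to 290). Of 8 macrophage and other immune markers 4 were listed, of which 0 were called, and their sum was 38.8, 250 and 8.45 FPKM in C26 and 11.0, 5.73 and 54.7 FPKM in control muscle. Single genes carried these sums: Cd68 had 34.9, 247 and 6.46 FPKM in C26 and 4.75, 1.75 and 5.77 FPKM in control muscle (log2 change 3.40, adjusted p = 0.0653 from limma), and Ptprc had 40.1 FPKM in control replicate 3 and at most 0.81 FPKM in the other muscles. The slow fibre markers (33.2 to 351 FPKM against 138 to 465), satellite cell markers (0.76 to 0.95 against 1.05 to 1.91) and Schwann cell markers (5.78 to 18.7 against 14.4 to 52.9) had 0, 0 and 1 genes lower and 0 higher. The part of these cell types in the results above was not tested.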

How the data were processed

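The authors sequenced rRNA-depleted RNA from gastrocnemius muscle as single-end reads, aligned clean reads to GRCm38.p5 with bowtie2 and estimated FPKM with RSEM; the deposited FPKM, to 2 decimals under Entrez IDs, are the values used. The submitters' processing notes name HISAT2 2.0.4, Bowtie2 2.2.5, RSEM 1.2.12 and the build mm9. Read counts were not analysed here, so depth and counting error are unknown. Of 13363 IDs, 13327 matched a symbol in RefSeq for GRCm38.p6 and 36 did not.

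FPKM were rescaled to TPM (sum 1000000) and divided by TMM factors (30% of log ratios and 5% of levels trimmed, unweighted; 0.903 to 1.08). After a pseudocount of 1, log2 values were fitted with limma 3.58.1 under R 4.3.3 without a further filter on the listed genes. Benjamini-Hochberg adjustment was over all listed genes, and intervals were 95%. Fits were also run on simulated data in which far fewer genes changed than were called here, so that run does not vouch for these calls. Ratios of FPKM were compared by exact permutation tests (scipy 1.17.1). All 10 genes are named. Of the other lists, up to 4 genes with the largest called changes and those in ratios are named, with the 3 genes nearest to Ulk1 and Tfeb. Atg101 and Fis1 were added after their values were seen. The members and lists were chosen with earlier results of these data known. Alternatives were a pseudocount of 0.1, genes with a mean TPM of 1 or more, TPM not scaled by TMM, unscaled FPKM (FPKM as deposited), quantile normalization, a replicate block, an intensity trend, each muscle left out in turn and, chosen after seeing the data, weighted TMM factors.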

Additional observations from a re-analysis of the deposited data

How the results depend on the processing

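Over 8 alternatives and with each muscle left out, 5 or 6 of the 10 genes were higher and 0 lower, and Ulk1, Atg13, Rb1cc1, Wipi1 and Tbc1d15 were called in each. Atg14 was not called on FPKM as deposited (log2 change 0.48, adjusted p = 0.05004 from limma, just over the threshold), with log2 changes of 0.60 to 0.83 with a muscle left out. Tfeb reversed to -0.030 on FPKM as deposited and to -0.24 with quantile normalization, Rab7 to -0.12 with quantile normalization, and Becn1 to 0.028 without C26 replicate 2 (-0.16 to 0.028 with a muscle left out, -0.47 to -0.05 under the alternatives). The cause was not tested. Of the other pathway genes, 11 were lower and 26 higher on FPKM as deposited (all genes 18.7% and 12.6%), 11 lower and 26 higher with quantile normalization (11.8% and 16.8%), and 19 to 40 were higher and 1 to 13 lower with a muscle left out. The median log2 change of all genes was -0.14 on FPKM as deposited and -0.05 as reported; 1678 genes were then higher and 2504 lower, against 2590 and 1931. With a muscle left out, 1131 to 3311 genes were higher and 669 to 2160 lower. Samples of the 2 groups share only a replicate number (correlations of their deviations -0.04, -0.08 and -0.11). With the replicate block, Atg14 was not called (0.70, adjusted p = 0.0838 from limma), 5 of the 10 genes were higher, 27 other pathway genes were higher and 4 lower, and of all genes 1844 were higher and 1236 lower. No counts were used, so what depth limits is unknown.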
